A study of Mus musculus with 6 samples.

Results

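The genes described here encode the proteins of the cytosolic ribosome, measured in kidneys of C57BL/6 mice. They were chosen by symbol: names that begin with Rpl or Rps and a digit, the stalk genes Rplp0, Rplp1 and Rplp2, and Rpsa, without the kinases whose names begin with Rps6k and without symbols that end as numbered pseudogenes. The rule found 88 of the 24346 gene symbols in the table. By role, 43 belong to the large subunit, 31 to the small subunit and 3 to the stalk. A further 8 are paralogs or paralog-like genes, 2 are retrogenes or transcribed copies (Rps27rt and Rpl37rt), and 1, Rps19bp1, encodes a protein that binds Rps19 and is no ribosomal protein itself. Among the 8, Rps4l is annotated as a transcribed processed pseudogene, the same type as Rpl37rt. Fau, which encodes a small-subunit protein fused to a ubiquitin-like protein, falls outside the rule, while Rps27a, a ubiquitin fusion, falls inside it.

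The study profiled kidney RNA in a congestion experiment. Its groups are 3 IVCC libraries, from mice given the surgery that the labels call IVCC without spelling it out, and 3 Sham libraries, from mice given the sham operation. Both groups share the strain, and no other treatment, age or sex is stated. Nothing in the labels ties the replicates to separate animals, so the spread behind each p-value is that of the libraries and may be technical. The values are FPKM (fragments scaled by transcript length and by the mapped fragments of the library), so levels can be compared between genes per length.

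Each ribosome carries 1 copy of nearly every one of its proteins, and cells make these proteins in matched amounts. Their mRNAs are short, abundant and in mammals begin with a 5′ terminal oligopyrimidine (TOP) tract, a run of pyrimidines at the start of the mRNA through which mTOR signalling controls translation. In the kidney, ribosome production and the phosphorylation of Rps6 accompany the growth of tubule cells after loss of nephrons. Ribosomal protein genes are also the parents of many processed pseudogenes, copies made from mRNA that share long stretches of sequence with them.

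Sequence features that bear on the measurement come first. The annotated start of 67 of the 88 genes was found in the RefSeq promoter table for GRCm38.p6. A TOP-like tract was searched as a run of at least 5 pyrimidines (C or T) that begins with C, on the gene's own strand, from 5 bases before to 10 bases after the annotated start. It was present in 36 of the 67 genes (53.7%), against 30.6% of the 9191 tested genes with a promoter and 27.7% of all 27025 genes in the table. Over the subunit and stalk genes alone the share was 32 of 57 (56.1%). A match describes these letters only. The stretches below hold 35 bases before the annotated start and 20 from it, and were chosen to show tracts of different length in abundant members; capitals mark the tract.
Rpl38 (chr11:114668545-114668599, plus strand): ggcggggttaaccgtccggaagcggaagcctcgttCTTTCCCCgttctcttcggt
Rpl28 (chr7:4792930-4792984, plus strand): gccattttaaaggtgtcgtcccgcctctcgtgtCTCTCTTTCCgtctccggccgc
Rpl35a (chr16:33056447-33056501, plus strand): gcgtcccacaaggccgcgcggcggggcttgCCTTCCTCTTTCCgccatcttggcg
Rps18 (chr17:33955646-33955700, minus strand): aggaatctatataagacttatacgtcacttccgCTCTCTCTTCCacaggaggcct
Rpl35 (chr2:39005112-39005166, minus strand): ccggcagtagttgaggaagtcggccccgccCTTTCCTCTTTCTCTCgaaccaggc
Rplp2 (chr7:141447616-141447670, plus strand): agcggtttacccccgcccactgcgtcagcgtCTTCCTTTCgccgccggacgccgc
Rps27rt (chr9:114982720-114982774, minus strand): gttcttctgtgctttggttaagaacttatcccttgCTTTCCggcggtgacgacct

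A second feature is that several members have copies elsewhere in the genome that differ from them by few bases or by none, and 4 members stood out in the data next to such a copy. For each, the coding sequence in the GENCODE M21 annotation of GRCm38 was compared with that of the copy. The whole coding sequence of Rps27 (chr3:90212522-90213651, minus strand, a zinc-finger protein of the small subunit) is shown because the 255 bases are identical in the retrogene Rps27rt (chr9:114982366-114982739, minus strand), with 0 differences.
Rps27: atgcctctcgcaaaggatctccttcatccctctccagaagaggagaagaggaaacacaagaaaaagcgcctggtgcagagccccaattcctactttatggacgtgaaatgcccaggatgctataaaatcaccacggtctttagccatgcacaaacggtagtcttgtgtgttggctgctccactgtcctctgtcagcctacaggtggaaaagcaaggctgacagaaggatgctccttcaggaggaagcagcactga
Of the other 3 pairs, Rpl26 and Rpl34 are shown with their copies as 75-base stretches, the length of a read, around a base that differs, which is in capitals. Positions count from base 1 of the coding sequence, and each substitution gives the member's base first and the copy's base last. Rpl26 (chr11:68901583-68906989, plus strand) differs from Gm15772 (chr5:3236431-3236868, plus strand) by C177T and T288C over 438 bases.
Rpl26: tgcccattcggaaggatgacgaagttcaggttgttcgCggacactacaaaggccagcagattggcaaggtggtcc
Gm15772: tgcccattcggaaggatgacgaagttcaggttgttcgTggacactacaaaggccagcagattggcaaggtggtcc
Rpl30 (chr15:34440505-34443640, minus strand) differs from Gm12191 (chr11:49678710-49679057, minus strand) by 1 base over 348 bases.
Rpl34 (chr3:130726831-130730398, minus strand) differs from Rpl34-ps1 (chr6:71124610-71124963, plus strand) by T132C and C318G over 354 bases.
Rpl34: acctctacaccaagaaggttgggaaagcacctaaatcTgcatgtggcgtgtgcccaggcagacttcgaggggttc
Rpl34-ps1: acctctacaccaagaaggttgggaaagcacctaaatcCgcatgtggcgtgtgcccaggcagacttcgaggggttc
A read that covers none of the differing bases fits both copies, and of the 271 stretches of 75 bases in the Rps27 transcript, 267 also occur in Rps27rt. Across the whole group, 83 of the 88 members shared at least 1 stretch of 75 bases with another annotated gene, and 36 shared over 50% of theirs. The median share was 47.2%. Rps3, Rps19bp1, Rpl3l and Rpl39l were among those that shared none. How the authors assigned reads that fit several places is not given in the sources used here, so the level of a single member is uncertain where copies exist.

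In level, the ribosomal protein genes were among the most abundant mRNAs of the kidney. Of the 88 members, 76 averaged at least 100 FPKM over the 6 libraries, 63 at least 500 FPKM and 21 at least 1000 FPKM. They took 18 of the top 100 places and 73 of the top 500 places among all genes by mean FPKM. The median of the 85 tested members was 769 FPKM, against 11.1 FPKM over all 12090 tested genes. A gene was tested where its mean was at least 1 FPKM. The other 3 members, Rpl26 of the large subunit and the paralogs Rpl10l and Rpl39l, known from testis, were listed at 0 in every library.

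**Figure D1:**
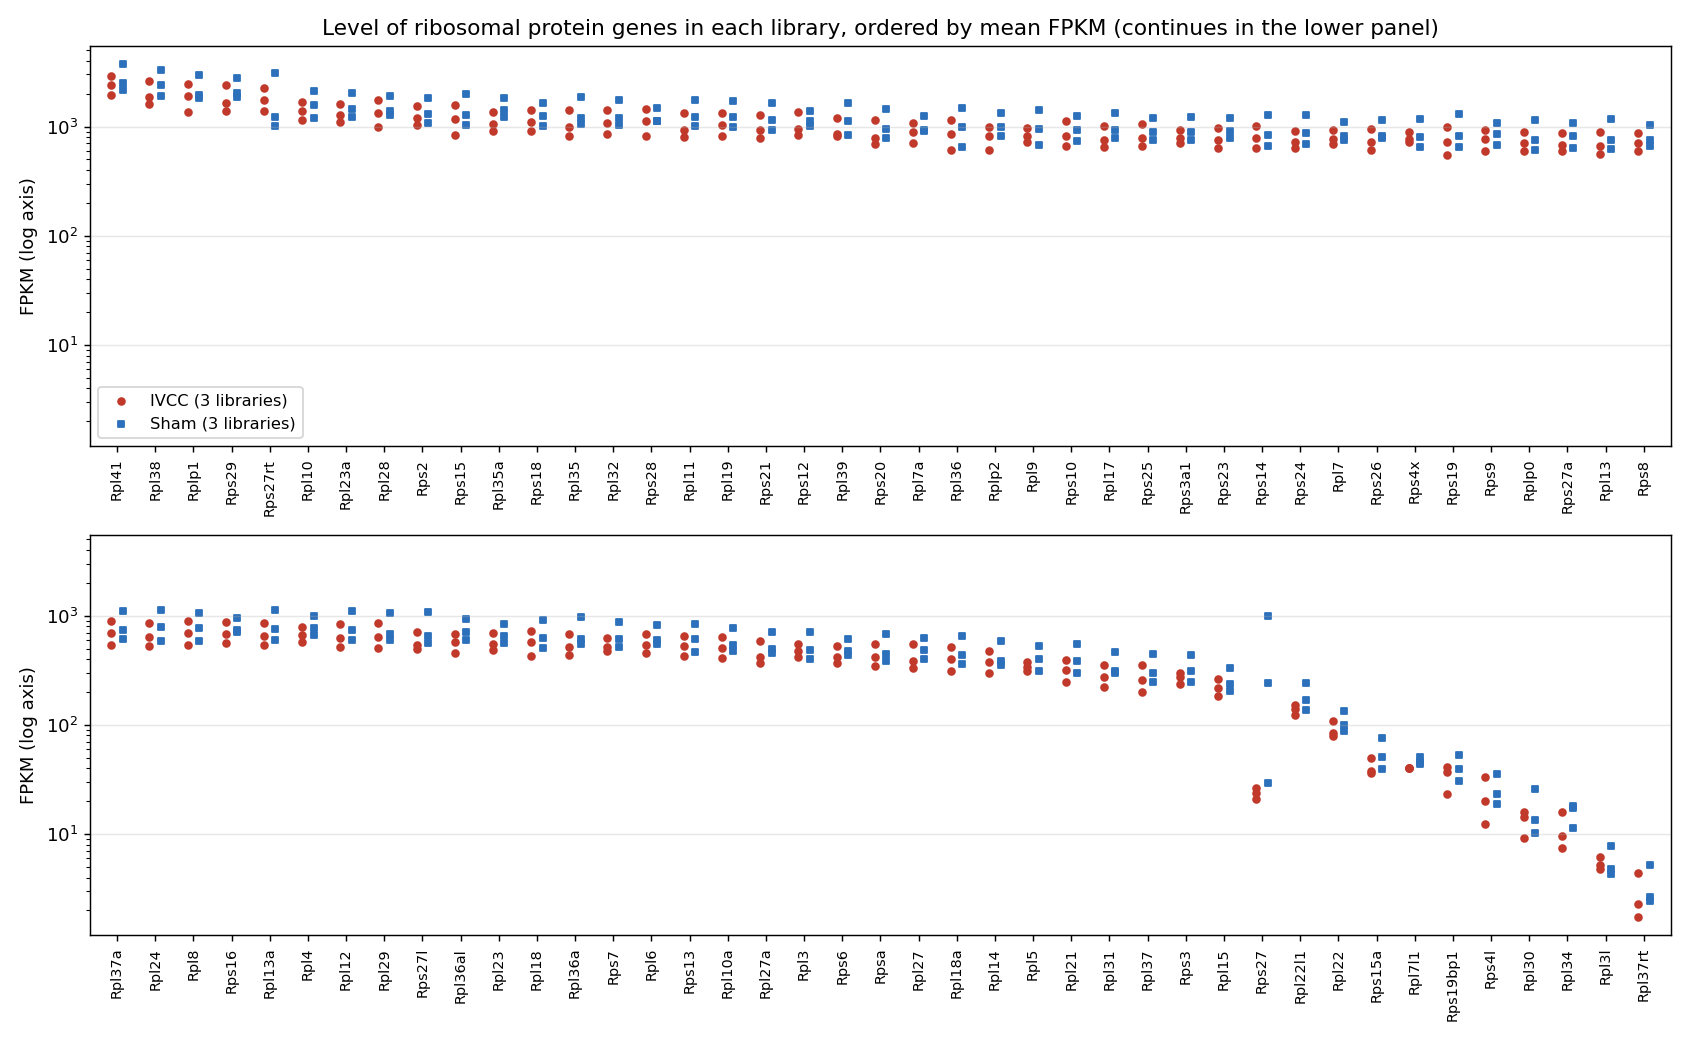
FPKM of the ribosomal protein genes reported here that were above 0, in each of the 6 libraries, on a log axis, with genes ordered from left to right by mean FPKM and continuing in the lower panel; IVCC libraries and Sham libraries are in separate colours. Rpl41 has the highest mean, most genes lie above 100 FPKM, and a short tail lies below. The tail holds paralogs such as Rpl3l, members with near-identical copies such as Rpl34, and others such as Rps19bp1. Rps15a, also in the tail, shares 136 stretches of 75 bases with the annotated copies Rps15a-ps6 and Rps15a-ps4.

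Rpl41, which encodes the shortest protein of the ribosome, had the highest mean of the group. Its FPKM were 2396, 1933 and 2931 in the IVCC libraries 1 to 3, against 2527, 2163 and 3727 in the Sham libraries 1 to 3. The third IVCC library lay above the first and second Sham libraries, so the groups overlapped. Rpl38, a large-subunit protein whose loss disturbs the skeleton pattern in mice, had 1864, 1593 and 2636 FPKM in IVCC libraries, against 2414, 1910 and 3293 FPKM in Sham libraries. Rps29 of the small subunit had 1631, 1401 and 2424 FPKM in IVCC libraries, against 2012, 1871 and 2795 FPKM in Sham libraries. In these genes too the second library was the lowest and the third the highest of each group.

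The main comparison was IVCC against Sham, fitted with limma on log2(FPKM + 1) over all tested genes. No member passed an adjusted p of 0.05, and neither did any other gene: 0 of 12090 were called, a background of 0%. The smallest adjusted p among members was 0.924 (limma, Benjamini-Hochberg), and the smallest over all genes was 0.790. At an unadjusted p under 0.05, 1 member was lower in IVCC (Rps27; background 1.87% of genes lower) and 0 were higher (background 1.7%). The fitted differences nonetheless leaned one way. Of the 85 tested members, 84 had a negative log2 fold change, against 51.6% of all tested genes. The median log2 fold change over the members was -0.23 (quartiles -0.29 and -0.20), against -0.01 over all tested genes. The members share the libraries and are not replicates, and the median standard error of a member's fold change was 0.26. Scaled to the same sum (TPM), 73 members were lower in IVCC with a median of -0.06, while the median of all genes moved to 0.15. After quantile normalization 67 were lower with a median of -0.05. Median ratio scaling was also run and left the median of all genes at 0.00074, near its deposited value.

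By part of the ribosome the medians lay close together. On the deposited scale all 42 tested large-subunit genes had a negative log2 fold change with a median of -0.24, and so had all 31 small-subunit genes with a median of -0.22 and all 3 stalk genes with a median of -0.24. Over the 6 tested paralogs or paralog-like genes, Rps4l among them, the median was -0.32. Of the 85 tested members, 79 lay between -0.4 and -0.1, 3 below this range (Rps27, Rpl34 and Rpl35a), 2 between -0.1 and 0 (Rps4x and Rpl3l) and 1 above 0 (Rps27rt). Values of all IVCC libraries lay below those of all Sham libraries in 2 members, Rps27 and Rpl7l1, which is 2.35% of members against a background of 4.22% of tested genes. The reverse order occurred in 0 members, against a background of 4.09%.

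Rpl7l1, a low-abundance paralog of the large-subunit gene Rpl7, had the smallest standard error among the members. It had 40.5, 40.4 and 40.1 FPKM in IVCC libraries, against 46.1, 43.9 and 50.3 FPKM in Sham libraries. The groups did not overlap, and the log2 fold change was -0.21 (SE 0.10, limma adjusted p = 0.924). Rpl35a, a large-subunit protein linked to Diamond-Blackfan anaemia, had 1046, 916 and 1345 FPKM in IVCC libraries, against 1416, 1217 and 1813 FPKM in Sham libraries. The third IVCC library lay between the Sham values, and the log2 fold change was -0.43 (SE 0.23, limma adjusted p = 0.924). Rpl36al, a near twin of Rpl36a, had 572, 453 and 674 FPKM in IVCC libraries, against 709, 599 and 934 FPKM in Sham libraries, which overlap. Its log2 fold change was -0.39 (SE 0.23, limma adjusted p = 0.924).

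Among small-subunit genes with other known functions, Rps6, the protein phosphorylated by the S6 kinases downstream of mTOR, had 422, 368 and 529 FPKM in IVCC libraries, against 477, 439 and 615 FPKM in Sham libraries. Rps3, which lies at the mRNA entry of the ribosome and shares no 75-base stretch with another gene, had 274, 235 and 301 FPKM in IVCC libraries, against 312, 244.7 and 435 FPKM in Sham libraries. Rps19, mutated in Diamond-Blackfan anaemia, had 729, 553 and 982 FPKM in IVCC libraries, against 811, 648 and 1297 FPKM in Sham libraries. In each of these the groups overlapped, with log2 fold changes of -0.22 for Rps6, -0.26 for Rps3 and -0.26 for Rps19. Rpsa, also known as the laminin receptor, and the ubiquitin fusion Rps27a had log2 fold changes of -0.19 and -0.24.

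The stalk proteins recruit the elongation factors to the ribosome. Rplp0, their anchor, had 704, 599 and 891 FPKM in IVCC libraries, against 753, 607 and 1147 FPKM in Sham libraries. Rplp1 had 1894, 1369 and 2476 FPKM in IVCC libraries, against 1945, 1823 and 2967 FPKM in Sham libraries. Rplp2 had 811, 615 and 994 FPKM in IVCC libraries, against 989, 825 and 1336 FPKM in Sham libraries. All 3 overlapped between the groups, with log2 fold changes of -0.16 (SE 0.27) for Rplp0, -0.24 (SE 0.30) for Rplp1 and -0.38 (SE 0.25) for Rplp2.

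In the large subunit, Rpl5 and Rpl11 form a complex with the 5S rRNA that can bind Mdm2 and so stabilise p53. Rpl5 had 340, 315 and 375 FPKM in IVCC libraries, against 398, 314 and 524 FPKM in Sham libraries. Rpl11 had 931, 809 and 1330 FPKM in IVCC libraries, against 1226, 1017 and 1765 FPKM in Sham libraries. The lowest Sham value of Rpl5 lay below every IVCC value, while Rpl11 overlapped through the third IVCC library. Their log2 fold changes were -0.23 (SE 0.20) and -0.38 (SE 0.28). Rpl3, near the peptidyl transferase centre, had a log2 fold change of -0.11 (SE 0.23), and Rpl10, which joins the subunit late in its assembly, one of -0.19 (SE 0.26). Rpl39, at the exit tunnel, had one of -0.28 (SE 0.28), and Rps19bp1 one of -0.27 (SE 0.26). Limma's adjusted p was between 0.924 and 0.986 for every tested member.

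The members shared a common order of the libraries. Each member's deviation from its own mean over the 6 libraries was taken on the log2(FPKM + 1) scale. The median deviation over members was -0.15, -0.43 and 0.22 in IVCC libraries 1 to 3, against 0.04, -0.23 and 0.55 in Sham libraries 1 to 3. The second library was low and the third high in both groups. Of the 85 members, 83, 84 and 3 lay below their own mean in the IVCC libraries, against 26, 81 and 2 in the Sham libraries. The third Sham library was the highest of all 6 for 82 members, against 36.2% of all tested genes. The second IVCC library was the lowest for 77 members, against 26.3% of all tested genes. The third IVCC library lay above both the first and the second Sham library for 75 members. Within a group, the SD of the median deviation over libraries reached 0.40, larger than the median difference between the groups. The typical member varied 1.99-fold between its highest and lowest library.

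**Figure D2:**
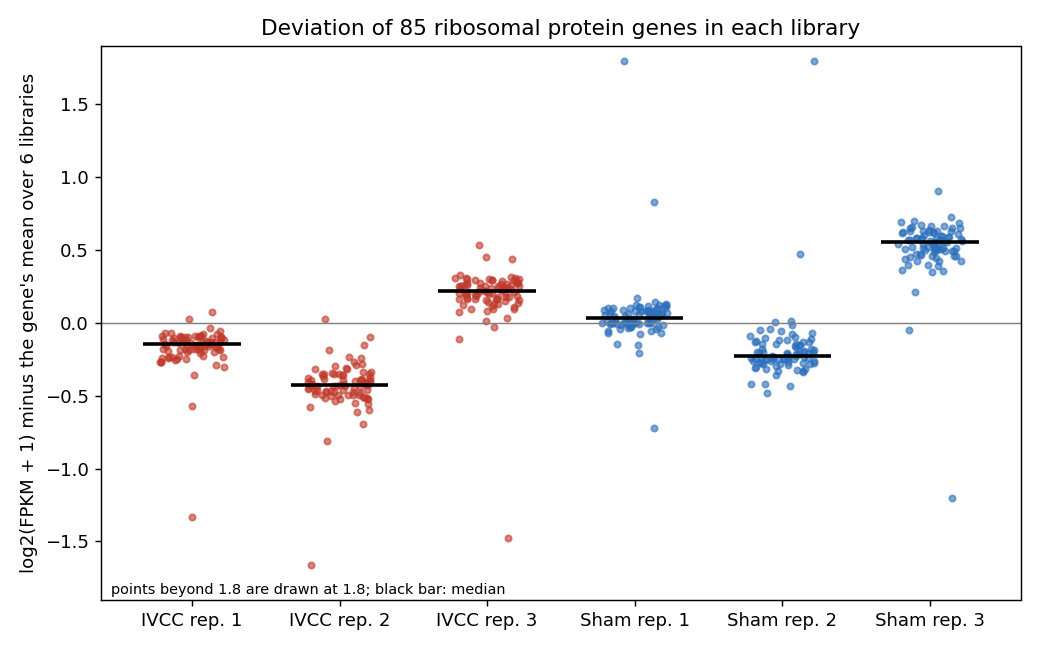
Deviation of each of the 85 tested members from its own mean over the 6 libraries, on the log2(FPKM + 1) scale, by library, with the median as a black line; values beyond 1.8 in either direction are drawn at 1.8. The members move as a tight cloud, low in the second library of each group (medians -0.43 in IVCC and -0.23 in Sham) and high in the third (0.22 in IVCC and 0.55 in Sham).

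Single libraries moved this median. Without the third Sham library the median log2 fold change over members was -0.04, with 57 members lower in IVCC. Without the second IVCC library it was -0.09, with 76 members lower. Without the third IVCC library it was -0.40, and without the second Sham library also -0.40. Leaving out the third library of both groups gave -0.21, with 81 members lower.

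Relative to one another the members kept close proportions. After subtracting the members' median deviation from each library, the SD of a member over the 6 libraries had a median of 0.08 on the log2 scale, and 79 of the 85 members stayed under 0.2. The widest were Rps27 (2.35), Rpl30 (0.53), Rps27rt (0.42), Rpl34 (0.36), Rpl7l1 (0.28) and Rps4l (0.23), of which the first 4 have a near-identical copy in the table. Subtracting the members' own median removes the shift that they share. The same SD was not computed for other genes, so close proportions are not shown to be particular to the members. For relative fold changes, each library was instead divided by the median ratio of the members that averaged at least 100 FPKM. On this relative scale the log2 fold change of Rplp0 was 0.08, of Rpl3 0.12 and of Rps4x 0.14, and that of Rpl35a stayed negative at -0.19. All IVCC libraries lay below all Sham libraries in 9 members, Rpl35a, Rpl36al, Rplp2, Rpl11, Rpl36a, Rpl31, Rpl21, Rpl17 and Rpl19, which is 10.6% of members against a background of 0.885%. Rps2 alone lay above in all IVCC libraries (1.18% of members against a background of 4.02%). The limma adjusted p was 0.866 for each of these 10 genes, so none was called. This scale centres the members at a median of 0.0013 and moves the median of all tested genes to 0.20. The scaling itself thus lowers the share of all genes with IVCC below Sham, which was 4.22% on the deposited scale. The 10.6% and 0.885% are therefore not like values, and no conclusion is drawn from them.

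The members' share of the summed FPKM gives the level of the group as a whole. It was 7.79%, 6.85% and 8.38% in IVCC libraries, against 8.001%, 7.40% and 8.72% in Sham libraries. The means were 7.67% ± 0.77 in IVCC and 8.04% ± 0.66 in Sham (SD, n = 3 each), and the difference of -0.37 percentage points was smaller than either SD. The summed FPKM themselves differed, at 768192, 719896 and 927860 in IVCC libraries against 854859, 775720 and 1118258 in Sham libraries. They were lowest in the second IVCC library and highest in the third Sham library, as the members' levels were. The kidney androgen-regulated gene Kap took 11.0%, 11.2% and 13.1% of the sum in IVCC libraries, against 14.05%, 12.96% and 16.6% in Sham libraries. Without Kap in the sum the members' share was 8.70% ± 0.97 in IVCC and 9.42% ± 0.98 in Sham (SD, n = 3 each). In bulk tissue, fewer cells of a type and less RNA per cell cannot be told apart. The read depth is not recorded in FPKM, and the steps between low values gave only nominal sizes, 8200000 to 9120000 reads in IVCC libraries and 6120000 to 7160000 reads in Sham libraries, under an assumed fragment of 200 bases.

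Transcript length moved with the fitted differences. The tested members had a median transcript length of 774 bases, against 2557 bases for the 11932 other tested genes with a length. Other short genes also had lower fitted values in IVCC. Under 600 bases, the median log2 fold change was -0.24 in 25 members and -0.18 in 326 other genes. From 600 to 1000 bases it was -0.23 in 41 members and -0.18 in 879 other genes, of which 82.8% were lower. From 1000 to 2000 bases it was -0.21 in 15 members and -0.10 in 3065 other genes. Over 2000 bases it was -0.24 in 4 members and 0.04 in 7662 other genes, of which 37.5% were lower. The last 4 include Rps15a and Rps20, whose median length comes from long annotated isoforms although their coding sequences have 393 and 360 bases. Across the other tested genes, Spearman's rho between length and log2 fold change was 0.50 (n = 11932), as a description over genes that share the 6 libraries.

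**Figure D3:**
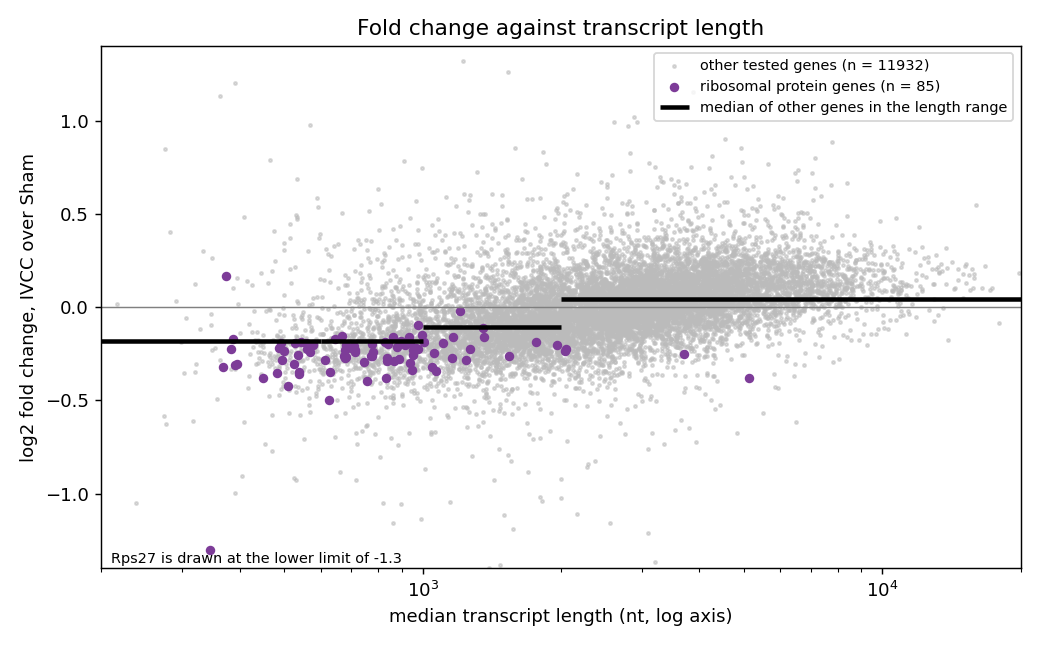
Log2 fold change, IVCC over Sham, against median transcript length in bases on a log axis, for the ribosomal protein genes and for the other tested genes; genes outside the axes are not drawn, and Rps27 is drawn at -1.3. Members and other genes under 1000 bases lie mostly below 0, with medians from -0.24 to -0.18, while other genes over 2000 bases centre at 0.04.

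The length pattern was visible in single libraries. Among the other genes of 600 to 1000 bases, the median deviation was -0.13, -0.29 and 0.15 in IVCC libraries, against 0.03, -0.12 and 0.39 in Sham libraries. The members of that length had -0.13, -0.43 and 0.22 in IVCC libraries, against 0.04, -0.24 and 0.55 in Sham libraries. In both sets the second IVCC library was the lowest and the third Sham library the highest, and the members' values spread wider in libraries 2 and 3 of each group. When transcript length and GC content were corrected for per library, over all genes, the members' median log2 fold change was -0.12, and 77 of 85 were lower, against 52.3% of all genes. The correction did not bring the shortest other genes to 0. Under 600 bases the corrected median was -0.15 in other genes and -0.20 in members. From 600 to 1000 bases it was -0.03 and -0.09, and from 1000 to 2000 bases 0.01 and -0.08. Over 2000 bases it was -0.01 in other genes and -0.25 in members. The latter rests on 4 members, among them Rps15a and Rps20, whose lengths come from long isoforms. The correction treated these as long genes and moved Rps15a from -0.38 to -0.48 and Rps20 from -0.25 to -0.30. At an unadjusted p under 0.05, 7 members were then lower (8.24% against a background of 3.1%), and none passed adjustment (limma, smallest adjusted p = 0.656). Within the members, Spearman's rho of the log2 fold change was 0.23 with transcript length (n = 85) and 0.48 with coding length (n = 83), descriptions over genes that share the libraries. After the length and GC correction, rho was 0.43 with transcript length and 0.66 with coding length. Rpl4, Rpl3 and Rpl3l have the longest coding sequences, and their log2 fold changes were -0.26, -0.11 and -0.02. Rpl41, Rpl39 and Rps29 have the shortest among the tested, with -0.19, -0.28 and -0.31.

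**Figure D4:**
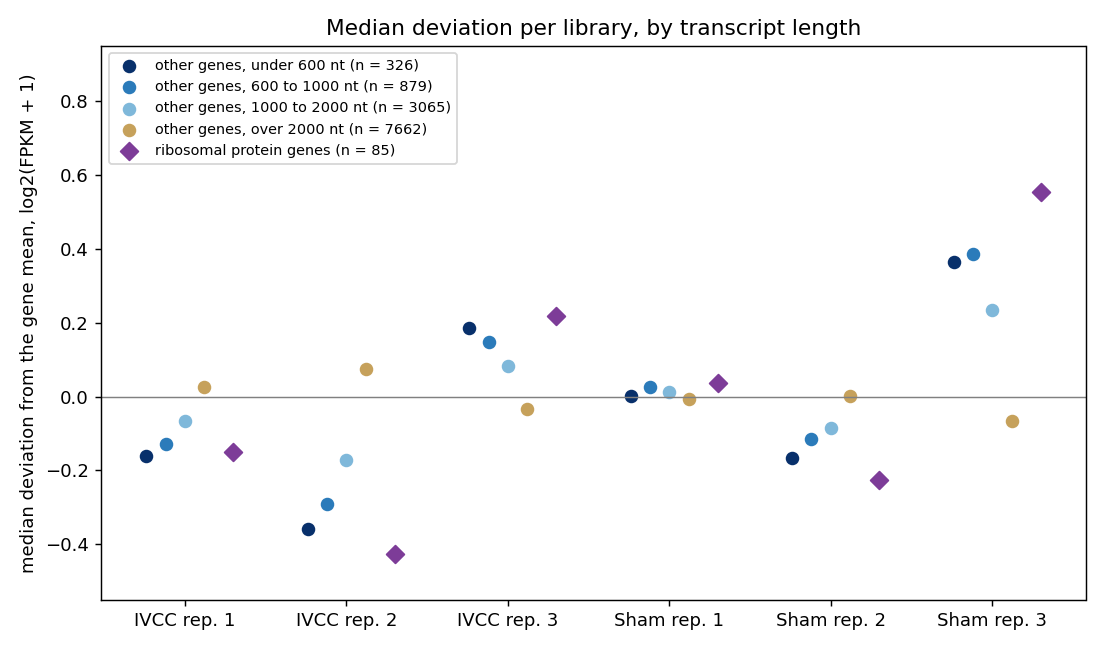
Median deviation from the gene mean on the log2(FPKM + 1) scale in each library, for members and for other genes in bins of transcript length. Short genes of both kinds are low in the second and high in the third library of each group, and other genes over 2000 bases stay within 0.08 of 0.

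The part of length or library quality in the members' difference was not tested beyond this correction. By TOP tract, the median log2 fold change was -0.27 in the 36 tested genes with a tract and -0.23 in the 28 without one, a difference that was not tested. Genes that shared over 50% of their 75-base stretches had a median of -0.23, against -0.25 for the rest.

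The copies shown above bear on single members. Rps27 had 26.5, 21.0 and 24.0 FPKM in IVCC libraries, against 1003, 243 and 29.1 FPKM in Sham libraries. The IVCC libraries lay close together, and the Sham libraries spread over more than an order of magnitude. The log2 fold change of -2.98 (SE 1.08, limma adjusted p = 0.924) was the most negative of the group. Rps27rt had 1754, 1379 and 2254 FPKM in IVCC libraries, against 1006, 1232 and 3119 FPKM in Sham libraries, and a log2 fold change of 0.17 (SE 0.43, limma adjusted p = 0.952). Summed, they had 1780, 1400 and 2278 FPKM in IVCC libraries, against 2008, 1475 and 3148 FPKM in Sham libraries. Rps27 made up 1.49%, 1.498% and 1.05% of the sum in IVCC libraries, against 49.9%, 16.5% and 0.924% in Sham libraries. With the 2 joined, the log2 fold change was -0.24 (SE 0.32, limma adjusted p = 0.925), close to the median of the group. With identical coding sequences, a difference of Rps27 and a different division of reads between the 2 genes cannot be told apart.

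**Figure D5:**
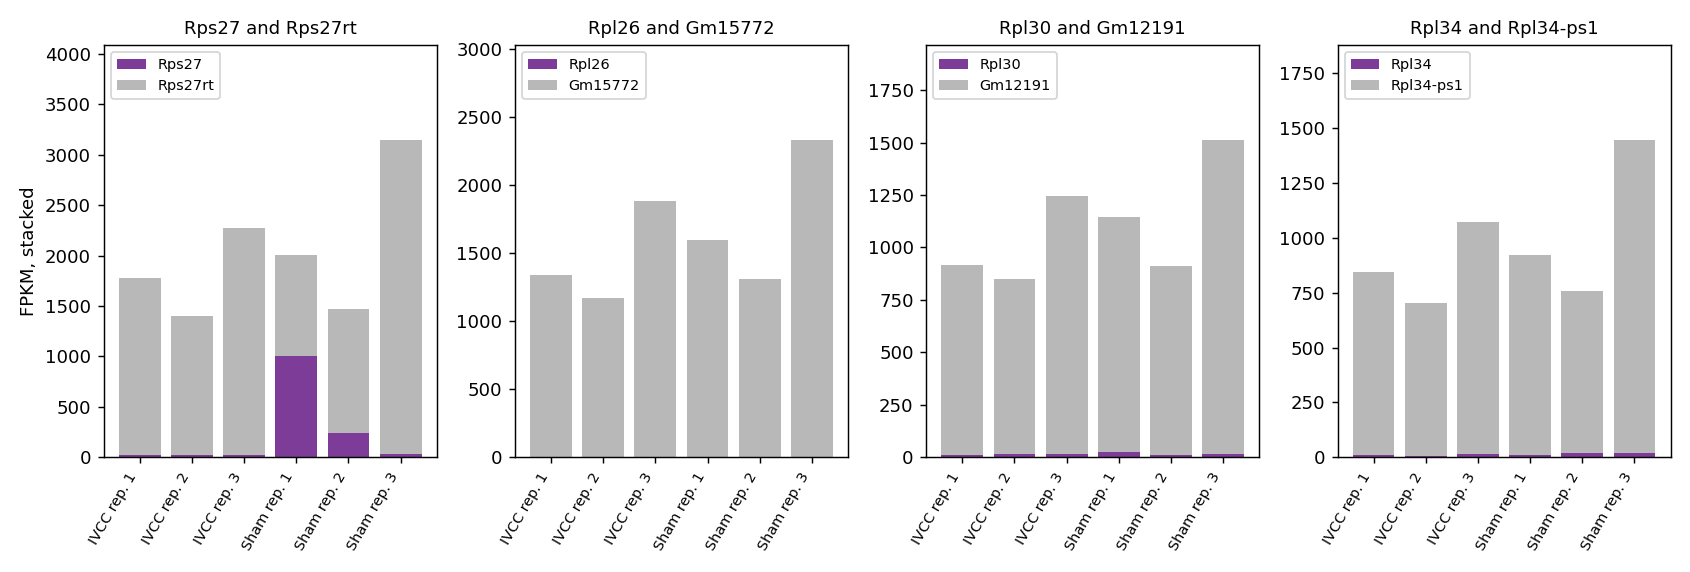
Stacked FPKM of Rps27, Rpl26, Rpl30 and Rpl34 and of the near-identical copy of each, by library. In the first Sham library Rps27 takes 49.9% of its pair and in the second 16.5%, while in the other libraries it takes at most 1.498%; the other 3 members take at most 2.38% of their pair in any library.

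Rpl26 was listed at 0 in every library, while Gm15772, its processed copy, had 1341, 1171 and 1884 FPKM in IVCC libraries, against 1598, 1306 and 2331 FPKM in Sham libraries. Rpl30 had 9.13, 14.3 and 16.1 FPKM in IVCC libraries, against 25.7, 10.3 and 13.5 FPKM in Sham libraries. Gm12191 beside it had 907, 835 and 1228 FPKM in IVCC libraries, against 1117, 899 and 1499 FPKM in Sham libraries. Rpl34 had 9.68, 7.44 and 15.8 FPKM in IVCC libraries, against 11.3, 17.99 and 17.4 FPKM in Sham libraries, with a log2 fold change of -0.50 (SE 0.28, limma adjusted p = 0.924). Rpl34-ps1 had 834, 693 and 1055 FPKM in IVCC libraries, against 909, 739 and 1429 FPKM in Sham libraries. The 3 copies had levels like those of the abundant members and log2 fold changes of -0.24, -0.23 and -0.22, which overlap between the groups.

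Paralogs were compared with the member they resemble by the log2 ratio of their FPKM + 1, with an exact permutation test of 3 against 3 libraries, two-sided, which cannot give a p under 0.1. The 6 pairs with both genes above 0 were tested. Rpl3l, known from skeletal muscle and heart, stood far below Rpl3, with a log2 ratio of -6.23 ± 0.04 in IVCC and -6.32 ± 0.07 in Sham (SD, n = 3 each; exact p = 0.2, adjusted 0.6). Rpl22l1, which Rpl22 represses, was listed above Rpl22, with 0.61 ± 0.12 in IVCC and 0.75 ± 0.11 in Sham (exact p = 0.2, adjusted 0.6). Of the 478 stretches of 75 bases in Rpl22l1, 234 also occur in the annotated pseudogene Gm15421. The median transcript lengths are 538.5 bases for Rpl22l1 and 2048 bases for Rpl22, so their order in level is uncertain. The p53-responsive Rps27l against Rps27 had 4.54 ± 0.26 in IVCC and 1.91 ± 2.96 in Sham (exact p = 0.4, adjusted 0.8), a spread that comes from Rps27. This ratio counts Rps27 without Rps27rt, so it does not show that Rps27l exceeds the 2 together. Rps27l had 544, 495 and 708 FPKM in IVCC libraries, against 652, 561 and 1075 FPKM in Sham libraries. These values lay below the joined level of Rps27 and Rps27rt in every library. The log2 ratio of Rpl36al to Rpl36a was 0.06 ± 0.08 in IVCC and 0.10 ± 0.14 in Sham, with an exact p of 0.8 (adjusted 0.8). That of Rpl7l1 to Rpl7 was -4.25 ± 0.24 in IVCC and -4.21 ± 0.19 in Sham (exact p = 0.7, adjusted 0.8). That of Rps4l to Rps4x was -5.22 ± 0.52 in IVCC and -5.03 ± 0.03 in Sham (exact p = 0.7, adjusted 0.8).

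Other genes of translation had fitted differences of the same sign on the deposited scale, where 51.6% of all tested genes were fitted lower. Scaled to the same sum, which raises the median of all genes, many of these differences changed sign. Of 16 translation factors and related genes with known TOP mRNAs, 14 were lower in IVCC and 2 higher (median log2 fold change -0.17). Scaled to the same sum, 8 were lower and 8 higher (median 0.0040). After median ratio scaling 14 were lower (median -0.16), and after quantile normalization 11 (median -0.05). Corrected for length and GC content, the median was -0.06. Of 29 initiation factors, 23 were lower and 6 higher (median -0.14), but scaled to the same sum 9 were lower and 20 higher (median 0.03). After median ratio scaling 23 were lower (median -0.13), and after quantile normalization 18 (median -0.04). Corrected for length and GC content, their median was -0.05. The initiation factor Eif5b, which joins the subunits, had 13.8, 13.6 and 11.999 FPKM in IVCC libraries, against 17.1, 16.4 and 15.4 FPKM in Sham libraries. Its groups did not overlap, and it was the single initiation factor at an unadjusted p under 0.05 (limma adjusted p = 0.924).

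Of 35 ribosome biogenesis genes, 29 were lower and 6 higher (median -0.14), but scaled to the same sum 12 were lower and 23 higher (median 0.03). After median ratio scaling 28 were lower (median -0.13), and after quantile normalization 29 (median -0.12). Corrected for length and GC content, their median was -0.11. Nop56, a core protein of the particles that methylate rRNA, had 20.7, 17.4 and 20.5 FPKM in IVCC libraries, against 24.5, 21.4 and 25.5 FPKM in Sham libraries. All IVCC values lay below all Sham values, without passing the test (limma adjusted p = 0.924). All 77 mitochondrial ribosomal proteins, which serve another ribosome, were lower on the deposited scale (median -0.23, and -0.14 once corrected for length and GC content). Scaled to the same sum, 58 were lower and 19 higher (median -0.05). After median ratio scaling 77 were lower (median -0.22), and after quantile normalization 74 (median -0.14). None of these genes passed adjustment in limma.

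Outside translation, 34 of 37 proteasome genes were lower (median -0.18, and -0.08 once corrected for length and GC content). Scaled to the same sum 22 were lower, after median ratio scaling 33 and after quantile normalization 32. Of 13 RNA polymerase II subunits, 11 were lower (median -0.14, and -0.06 once corrected for length and GC content). Scaled to the same sum 5 of these subunits were lower, after median ratio scaling 10 and after quantile normalization 8. Of 23 genes of mTOR and MYC control, 14 were higher and 9 lower (median 0.07, and 0.03 once corrected for length and GC content). Scaled to the same sum 20 were higher, after median ratio scaling 14 and after quantile normalization 13. Ddit4, an inhibitor of mTORC1, had 7.19, 7.75 and 9.02 FPKM in IVCC libraries, against 9.50, 12.2 and 9.54 FPKM in Sham libraries. All its IVCC values lay below its Sham values (limma unadjusted p = 0.0420, adjusted p = 0.924). Sesn1 and Tsc1, which also restrain mTORC1, had fitted differences of the opposite sign. Sesn1 had 7.59, 7.82 and 6.13 FPKM in IVCC libraries, against 6.14, 5.90 and 4.11 FPKM in Sham libraries, which overlap (limma adjusted p = 0.924). Tsc1, named after its values were seen, had 5.91, 8.21 and 5.68 FPKM in IVCC libraries, against 5.52, 5.64 and 4.96 FPKM in Sham libraries, which do not overlap. Of 11 p53 targets, 7 were higher and 4 lower (median 0.12, and 0.05 once corrected for length and GC content). None passed adjustment in limma.

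Of the cell type markers, several had higher and some lower fitted values in IVCC, and none passed adjustment in limma. At an unadjusted p under 0.05 (limma), 1.7% of all tested genes were higher and 1.87% lower. All 5 podocyte markers were higher in IVCC, 5 of them at an unadjusted p under 0.05, with summed FPKM of 51.4 to 92.4 in IVCC and 42.5 to 44.7 in Sham. The endothelial sum was 87.4 to 98.7 in IVCC and 77.3 to 87.1 in Sham, with 6 of 6 markers higher (2 at an unadjusted p under 0.05), and the macrophage sum was 89.8 to 110 in IVCC and 80.9 to 87.0 in Sham, with 6 of 7 higher (3 higher and 1 lower at an unadjusted p under 0.05). The fibroblast and mural sum was 42.7 to 57.5 in IVCC and 48.3 to 54.4 in Sham, with 4 of 6 higher (4 at an unadjusted p under 0.05). The urothelial markers summed to 0.35, 0.18 and 1.17 FPKM in IVCC libraries, against 2.87, 0.425 and 9.60 FPKM in Sham libraries, and the 1 that was tested, Psca, had a log2 fold change of -1.16 (limma adjusted p = 0.924). The proximal tubule markers, which define the bulk of the kidney, were present throughout and summed to 5574 to 6264 FPKM in IVCC and 5832 to 6366 FPKM in Sham. Higher in IVCC were 4 of 6 proximal tubule markers and 2 of 4 markers of the thick ascending limb. In the distal tubule 2 of 3 were higher, and in the collecting duct 3 of 5. Of the tested markers, 1 of 2 for neutrophils, 1 of 3 for erythroid cells and 1 of 1 for lymphocytes were higher. None of these tubule and blood cell markers had an unadjusted p under 0.05 (limma). Adipose markers were at 0 in every library. The part of these cell types in the members' difference was not tested.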

How the data were processed

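Stranded mRNA libraries from total kidney RNA were read single-end over 75 bp, per the labels' protocols. The authors deposited 1 table of FPKM, with 1 column for each of the 6 libraries. The submitters' processing notes list Cufflinks 2.2.1, TopHat2 2.0.13, SAMtools 0.1.19, Bowtie2 2.2.3 and the build mm10, and give no role for any. How reads that fit several genes were counted is not given in the sources used here.

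FPKM were taken as log2(FPKM + 1), so fold changes of low genes are understated. Genes averaging 1 FPKM or more (12090) were fitted with limma 3.58.1 in R 4.3.3 (trended eBayes, two-sided), adjusted by Benjamini-Hochberg at 0.05. The fit was tested on simulated data with independent noise for each gene. That simulation held no shift shared by many genes of a library, such as the members had here. Paralog ratios used exact permutation tests. Rpl10l and Rpl39l were at 0, so their pairs gave no ratio. FPKM hold no depth: with nominal sizes from the steps between low values, 61.8% to 66.4% of those values were whole reads within 0.1, too few for a count test.

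Length and GC content came from GENCODE M21 on GRCm38, the assembly that mm10 names, with splines of 4 degrees of freedom. Members, lists and the rule for named genes (smallest p, highest level, listed at 0, and members with known roles or paralogs) were chosen with earlier results of these data known. Alternatives were 2 pseudocounts, 2 filters, 4 scalings, 2 forms of eBayes, the replicate block, the length and GC correction and leaving out libraries. Some items that the rule for named genes takes are not reported here. Joining Rps27 with Rps27rt was added after the data had been seen.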

Additional observations from a re-analysis of the deposited data

How the results depend on the processing

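No member passed the adjusted threshold under any of the 21 alternatives. Of all genes, 1 (0.00832%) was called with the length and GC correction together with the replicate block, 0 to 4 with 1 library left out, and 4 without the libraries numbered 3 of both groups. The cause was not tested. The members' median log2 fold change ranged from -0.40 (without IVCC replicate 3) to 0.0013 (relative to the members' own median), and the difference in their share from -0.72 to 0.04 percentage points with 1 library left out. No label says that replicate numbers pair the libraries. The correlation of deviations was -0.11, 0.34 and 0.32 between the libraries numbered 1, 2 and 3, and -0.37 and -0.36 between those numbered 2 and 3 of different groups. Libraries 2 and 3 thus correlated best with their own number and libraries 1 did not. These deviations were centred within each group of 3 libraries, and whether the replicate numbers stand for pairs was not tested. With the replicate block, 0 members and 0 genes were called (smallest limma adjusted p = 0.0775), and 72 members were lower at an unadjusted p under 0.05, against 13.4% of all genes. With the length and GC correction added to the block, 31 members were, against 8.04%.

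Some log2 fold changes of single members changed sign. Scaled to the same sum, Rplp0 had 0.0168, Rpl3 0.0636 and Rpl3l 0.134. After quantile normalization, Rpl41 had 0.0237, Rplp0 0.0530, Rpl3 0.0521 and Rpl10 0.0232. Relative to the members, Rpl7l1 had 0.0275, Rpl41 0.0432, Rplp1 0.00129, Rpsa 0.0487, Rps6 0.0223, Rplp0 0.0779, Rpl3 0.125, Rpl3l 0.183, Rpl5 0.00297, Rpl10 0.0490 and Rpl22 0.0133. With the length and GC correction, with and without the block, Rpl3 had 0.0285 and Rpl3l 0.153, and without the libraries numbered 3 Rpl3 had 0.0178 and Rpl3l 0.117. With 1 library left out, the range was -0.165 to 0.199 for Rpl3l, -0.155 to 0.661 for Rps27rt, -0.363 to 0.0292 for Rpl41, -0.368 to 0.0529 for Rpsa, -0.482 to 0.0177 for Rps19, -0.365 to 0.0937 for Rplp0, -0.294 to 0.116 for Rpl3 and -0.395 to 0.0210 for Rpl10. The differences in paralog log2 ratios then ranged from -0.115 to 0.0219 for Rpl36al/Rpl36a, from -0.152 to 0.0811 for Rpl7l1/Rpl7 and from -0.444 to 0.0711 for Rps4l/Rps4x. Why these signs changed was not tested.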
